A study of Mus musculus with 3 samples.

Results

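The 39 genes described here encode the enzymes and transporters of folate and single-carbon metabolism, the methionine cycle, and the formation and removal of homocysteine thiolactone (HTL). They were listed by name for their place in these pathways, and all 39 were found among the 22380 protein-coding genes of the GENCODE M1 annotation of the mouse genome mm9. Chromatin came from NE4C cells, an established line of mouse neural stem cells, for which the labels name no treatment with HTL. It was immunoprecipitated with antibodies to homocysteinylated K79 of histone H3 (H3K79Hcy), to homocysteinylated lysine in general (KHcy), or to trimethylated K4 of histone H3 (H3K4me3, a mark of active promoters that the study used as a positive control). Each antibody has 1 library, so no difference below could be tested against replicates, and the intervals cover counting error only. The question put to the lists was where these marks lie relative to the genes that make, use and clear homocysteine.

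Folate carries single carbons from serine, glycine and histidine into thymidylate and purines, and passes a methyl group to homocysteine to make methionine. Methionine becomes S-adenosylmethionine (AdoMet), the methyl donor of the cell, and methyl transfer leaves S-adenosylhomocysteine (AdoHcy), which is hydrolysed to homocysteine. Methionyl-tRNA synthetase, which can activate homocysteine in place of methionine, edits it to HTL, and HTL reacts with lysines of proteins, histones included. In the embryo this metabolism is known for its link to closure of the neural tube.

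The H3K79Hcy, KHcy and H3K4me3 lists held 7387, 7300 and 19339 peaks, with 209335, 276864 and 787308 reads in them. These counts are not those the paper reports for H3K79Hcy and H3K4me3. The H3K4me3 list here is much longer than the paper's count. The length of the KHcy list is closer to the paper's H3K79Hcy count than that of the H3K79Hcy list. Lists are named here by the antibody in the sample labels, and the source of the difference was not tested. Sequencing totals of the libraries are not given in the lists. Fold below means the reads of a peak over the background of its library (1.59, 1.49 and 1.38 reads per 200 bp window) across the same length, and its interval is the exact 95% Poisson interval of the reads. The median peak had a fold of 2.70 in the H3K79Hcy list, 2.25 in the KHcy list and 2.59 in the H3K4me3 list. At the median width of a peak, the lowest number of reads listed was 19, 26 and 23, in the same order, so weaker enrichment than a fold of 1.99, 1.75 and 1.85 was not detectable at this depth in a peak of that width. Of 9 neural stem cell markers, 8 were in the annotation (Sox1 was not found). H3K4me3 peaks lay in the bodies of Sox2, Nes, Prom1 and Notch1, within 10 kb of Msi1 and Vim, and were absent within 10 kb of Pax6 and Fabp7. Among 6 markers of other cell types, Gata4 had H3K4me3 peaks in its body, and Ptprc, Alb, Myod1, Krt5 and Cdh5 had none within 10 kb. Of all protein-coding genes, 13.6% had an H3K4me3 peak within 1000 bp of the start. Lack of a peak in this list is therefore not read below as an inactive promoter.

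The sequences under the peaks that the account turns on are shown first, each 5′ to 3′ on the strand of its gene, with every CG pair in capitals. CG reads the same on both strands and is the pair that DNA methylation acts on. Mthfd1l and Blmh were the members with peaks of both homocysteinylation antibodies in the gene body, and the first 4 sequences are 300 bases from those peaks. They are the middle of the H3K79Hcy peak of Mthfd1l (chr10:6183951-6184250, minus strand), the part of the H3K79Hcy peak of Blmh nearest to its middle that holds no annotated UTR (chr11:76780564-76780863, plus strand), the middle of the KHcy peak of Blmh (chr11:76753651-76753950, plus strand), and the middle of the KHcy peak of Mthfd1l with the largest fold (chr10:6192351-6192650, minus strand).
Mthfd1l H3K79Hcy: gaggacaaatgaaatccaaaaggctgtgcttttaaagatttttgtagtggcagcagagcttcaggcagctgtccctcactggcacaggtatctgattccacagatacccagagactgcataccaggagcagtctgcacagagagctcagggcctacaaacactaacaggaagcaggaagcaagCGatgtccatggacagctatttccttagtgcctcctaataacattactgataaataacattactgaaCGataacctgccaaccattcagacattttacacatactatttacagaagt
Blmh H3K79Hcy: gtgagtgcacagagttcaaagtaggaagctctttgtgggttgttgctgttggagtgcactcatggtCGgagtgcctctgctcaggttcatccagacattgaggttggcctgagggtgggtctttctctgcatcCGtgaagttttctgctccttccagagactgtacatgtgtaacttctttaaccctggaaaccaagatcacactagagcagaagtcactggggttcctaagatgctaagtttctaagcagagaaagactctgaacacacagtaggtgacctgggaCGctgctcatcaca
Blmh KHcy: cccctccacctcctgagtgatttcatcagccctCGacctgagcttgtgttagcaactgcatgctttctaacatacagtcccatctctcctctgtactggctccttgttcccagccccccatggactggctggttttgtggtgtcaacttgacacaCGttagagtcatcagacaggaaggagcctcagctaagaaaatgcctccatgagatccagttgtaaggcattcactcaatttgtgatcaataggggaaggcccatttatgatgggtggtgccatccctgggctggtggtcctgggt
Mthfd1l KHcy: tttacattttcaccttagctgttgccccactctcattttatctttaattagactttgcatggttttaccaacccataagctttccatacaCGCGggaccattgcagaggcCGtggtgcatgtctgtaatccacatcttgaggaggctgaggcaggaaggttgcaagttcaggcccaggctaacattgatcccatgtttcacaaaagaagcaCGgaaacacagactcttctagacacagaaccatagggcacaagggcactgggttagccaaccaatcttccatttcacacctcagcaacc
These stretches hold 2, 3, 2 and 4 CG pairs, while the median over the middle 300 bases of all peaks was 2 in each of the 3 lists. The Blmh H3K79Hcy stretch overlaps an annotated exon of that gene, and the other 3 overlap no exon.

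Further sequences belong to H3K4me3 peaks at gene starts. The first is the middle of the peak in Cth, the member peak with the largest fold (chr3:157587451-157587750, minus strand). The others are the 300 bases before the starts of Ahcy (chr2:154900234-154900533, minus strand) and Mthfd1l (chr10:6373424-6373723, minus strand), the members whose starts lay inside an H3K4me3 peak.
Cth H3K4me3: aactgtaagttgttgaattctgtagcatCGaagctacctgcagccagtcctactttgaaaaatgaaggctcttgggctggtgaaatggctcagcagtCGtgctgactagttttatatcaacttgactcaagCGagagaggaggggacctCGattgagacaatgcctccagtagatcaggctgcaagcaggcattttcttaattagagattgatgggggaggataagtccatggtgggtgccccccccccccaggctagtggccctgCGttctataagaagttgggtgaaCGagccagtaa
Ahcy before the start: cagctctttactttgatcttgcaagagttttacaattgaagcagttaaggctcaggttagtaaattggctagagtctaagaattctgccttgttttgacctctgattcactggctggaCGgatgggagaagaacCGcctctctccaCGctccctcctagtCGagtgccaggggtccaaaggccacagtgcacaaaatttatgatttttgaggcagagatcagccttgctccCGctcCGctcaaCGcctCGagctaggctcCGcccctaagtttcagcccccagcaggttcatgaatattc
Mthfd1l before the start: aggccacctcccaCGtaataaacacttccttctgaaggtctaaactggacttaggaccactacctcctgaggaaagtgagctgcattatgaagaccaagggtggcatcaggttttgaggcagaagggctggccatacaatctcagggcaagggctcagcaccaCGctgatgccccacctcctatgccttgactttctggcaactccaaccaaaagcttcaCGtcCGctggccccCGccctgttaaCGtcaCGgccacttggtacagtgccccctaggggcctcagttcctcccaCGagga
They hold 6, 9 and 8 CG pairs. For the Cth stretch, the reference is the middle 300 bases of all H3K4me3 peaks, with a median of 2 (quartiles 1 and 5). Before the starts of all protein-coding genes the median was 9 CG pairs in 300 bases, and 49.6% of those stretches held at least 10.

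Of the 39 members, 29 had no peak of any list in the gene body or within 10 kb of it. Another 10 had at least 1, and in 8 of them a peak overlapped the body. H3K79Hcy peaks overlapped the bodies of 2 members, Mthfd1l and Blmh (5.13%, 95% Wilson interval 1.42 to 16.9%), against 7.82% of all protein-coding genes. KHcy peaks overlapped 3 bodies, those of Mthfd1l, Shmt1 and Blmh (7.69%, 2.65 to 20.3%), against 9.28% of all genes. H3K4me3 peaks overlapped 7 bodies, those of Mthfd1l, Shmt1, Mat2b, Ahcy, Ahcyl1, Cth and Mars2 (17.9%, 8.98 to 32.7%), against 19.7% of all genes. Each share of all genes lay inside the interval of the members. When the H3K4me3 list was cut to its 7300 peaks of largest fold, 2 members had one in the body. That was 0.49 times (exact 95% Poisson interval 0.06 to 1.75) the number given by genes of similar length under the same cut.

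With the 10 kb on either side included, the count stayed at 2 for H3K79Hcy (5.13%, against 11.2% of all genes). It was 4 for KHcy (10.3%, 4.06 to 23.6%, against 13.1%), with the addition of Ahcyl1, and 9 for H3K4me3 (23.1%, 12.6 to 38.3%, against 29.4%), with the addition of Tyms and Amt. Mthfd1l was the only member with peaks of all 3 lists, and 6 members had a peak of H3K4me3 alone within 10 kb. Shares of all genes were not computed for these combinations either. The plot of shares sets the members beside all genes for the body, the 10 kb around it and the start.

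**Figure D1:**
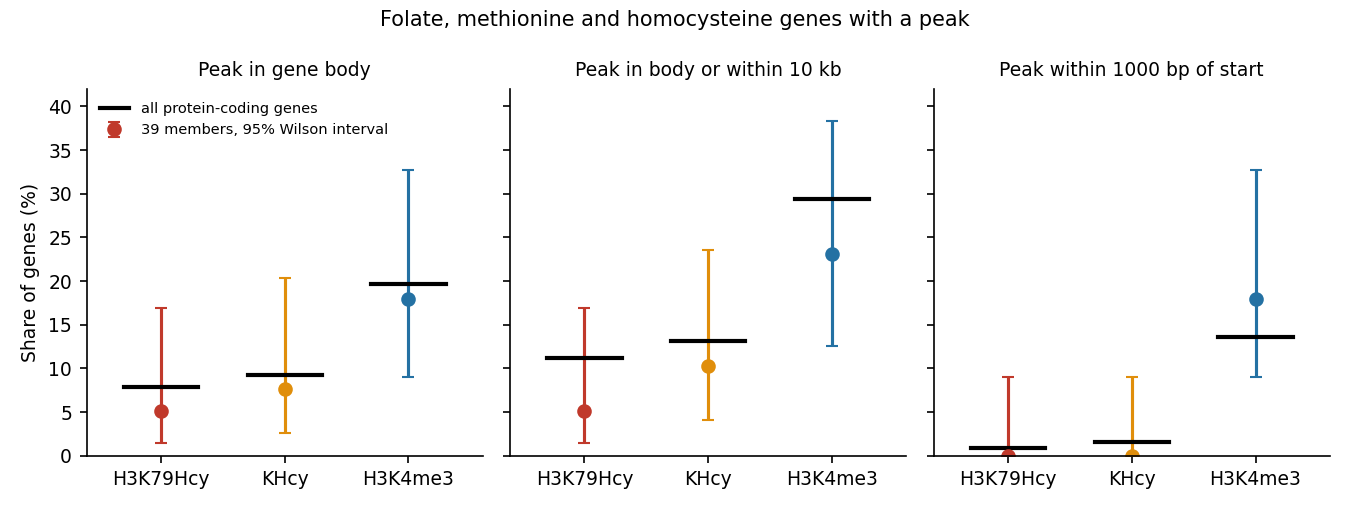
Share of genes (%) with a peak in the gene body, in the body or within 10 kb of it, and within 1000 bp of the start, for H3K79Hcy, KHcy and H3K4me3; points are the 39 members with 95% Wilson intervals, and black bars are all 22380 protein-coding genes. In the body the members stand at 5.13%, 7.69% and 17.9%, and each black bar lies inside the interval of the members.

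Gene length and position bear on whether a peak falls in a gene, since long genes and genes in peak-rich stretches hold more. The members ran from 2.86 to 194 kb with a median of 21.3 kb, against 15.4 kb for all genes. Genes of a length similar to that of each member would give 3.23 members with an H3K79Hcy peak, 3.93 with KHcy and 8.68 with H3K4me3, so the observed 2, 3 and 7 were 0.62, 0.76 and 0.81 times those numbers. The shares among all genes of the surrounding 5 Mb would give 2.4, 3.13 and 6.82. Counts this small cannot separate the members from genes of like length or place.

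Counted as peaks rather than genes, the member bodies, 1.46 Mb in all, held 2 H3K79Hcy, 7 KHcy and 9 H3K4me3 peaks. The density of peaks in the rest of the 5 Mb around each member would give 4.79, 5.37 and 12.88. The ratios were 0.42 (exact 95% Poisson interval 0.05 to 1.51) for H3K79Hcy, 1.30 (0.52 to 2.69) for KHcy and 0.70 (0.32 to 1.33) for H3K4me3, and the same ratio over all genes was 1, 1.1 and 0.87. The KHcy ratio rested on Mthfd1l, which supplied 5 of the 7 peaks. Without that gene, a split made after the values were seen, it was 0.45 (0.05 to 1.62), from 2 peaks.

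Among the 11 enzymes of the folate cycle, Mthfd1l had an H3K79Hcy peak in its body, Mthfd1l and Shmt1 had KHcy peaks, and the same genes had H3K4me3 peaks. Tyms had an H3K4me3 peak within 10 kb. The other 8 had no peak within 10 kb in any list: Mthfd1, the cytosolic enzyme that interconverts folate forms, Mthfd2 and Mthfd2l, its mitochondrial relatives, Mthfs, which returns formyltetrahydrofolate to use, Shmt2, the mitochondrial serine hydroxymethyltransferase, Ftcd, which passes a carbon from histidine breakdown to folate, and Aldh1l1 and Aldh1l2, which oxidise formyltetrahydrofolate.

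Mthfd1l, whose product releases formate from mitochondrial formyltetrahydrofolate, is the longest member (194 kb, chr10:6179460-6373423, minus strand). Its single H3K79Hcy peak (chr10:6183801-6184400) had 17 reads, a fold of 3.56 (2.07 to 5.70), and lay in an intron 189 kb from the start, at 97.6% of the length of the gene. The gene thus carried its H3K79Hcy peak close to its 3′ end. In the H3K79Hcy list, 85.6% of the peaks had a lower fold. The peak was 600 bp wide, where the list median was 1200 bp. Its score from the caller, 15.4, was near the lowest in the list, 14.5, so a high rank by fold was not a high rank by score.

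Its 5 KHcy peaks were all in introns, spread from 44.5 to 93.3% of the gene length. Going from the start, they had 36 reads (fold 2.42, chr10:6286201-6288200), 40 reads (2.45, chr10:6263001-6265200), 25 reads (2.4, chr10:6224401-6225800), 39 reads (2.39, chr10:6212601-6214800) and 28 reads (2.69, chr10:6191801-6193200). These folds lie close together, and their intervals overlap throughout. In the same order, 1.22, 0, 0.511, 9.68 and 10.6% of the words of 31 bases in these peaks occurred more than once in the genome. The median of the KHcy list was 2.44% (quartiles 0.395 and 6.54%) in a sample of 365 peaks. How far reads from such repeats entered the peaks was not tested. The density of the 5 Mb around Mthfd1l would give 0.90 KHcy peaks in the gene. Of 614 protein-coding genes of similar length, 2.28% held at least 5, and of the 220 that were also in a stretch of similar KHcy density 4 did (1.82%). The limit of 5 was the gene's own count, so these shares describe it and are not a test. For H3K79Hcy the density would give 0.89 peaks against the 1 seen, and 47.7% of 239 genes of similar length and stretch held at least as many.

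H3K4me3 peaks stood at both ends of Mthfd1l. The peak over the start (chr10:6372201-6374400) had 33 reads and a fold of 2.17 (1.50 to 3.05). Another in an intron (chr10:6199401-6201000) had 26 reads and a fold of 2.35, and the last, 2.86 kb past the end (chr10:6174401-6176600), had 30 reads and a fold of 1.97. The smallest gap between peaks of different lists was 6.20 kb, between KHcy and H3K4me3. The map of both genes with H3K79Hcy peaks shows this order along Mthfd1l.

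**Figure D2:**
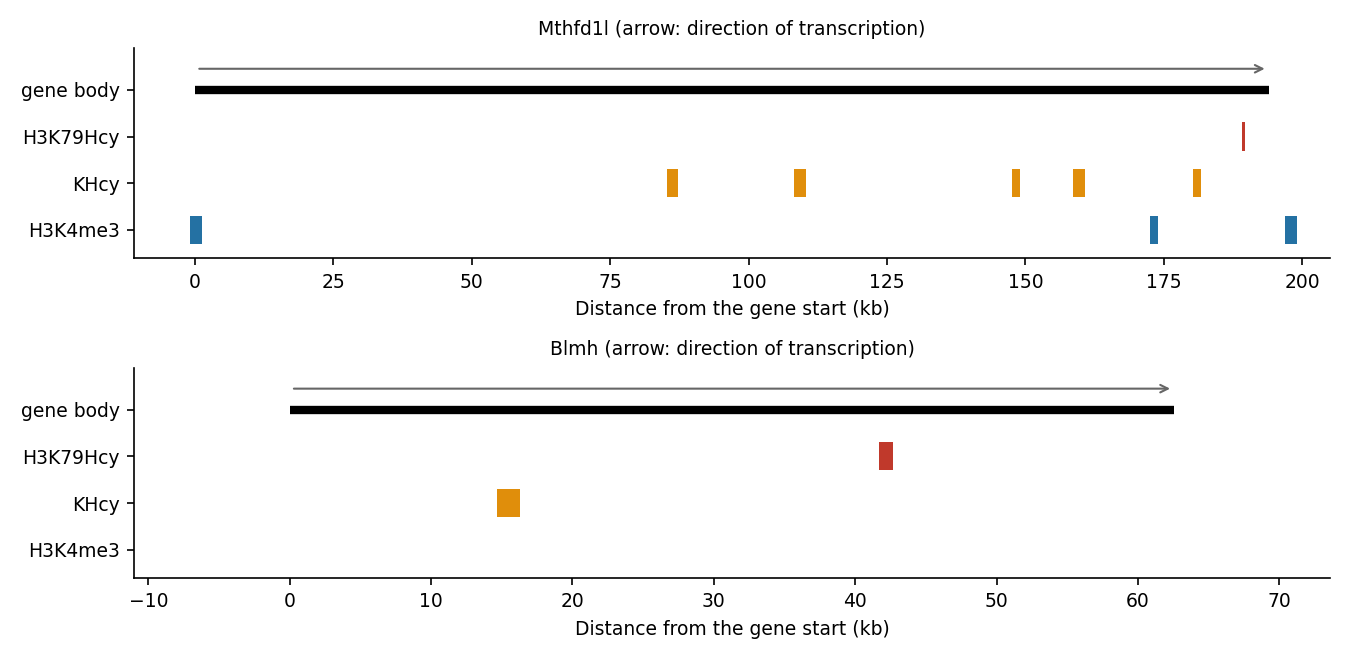
Peaks of H3K79Hcy, KHcy and H3K4me3 along Mthfd1l and Blmh, with distance from the gene start in kb and transcription to the right; black bars are gene bodies and coloured boxes are peaks to scale. In Mthfd1l the 5 KHcy peaks and the H3K79Hcy peak lie in the part of the gene from 44.5% of its length onward, and Blmh has 1 peak of each homocysteinylation list and none of H3K4me3.

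Shmt1, the cytosolic enzyme that moves a carbon from serine to folate (23.6 kb, chr11:60601606-60625220, minus strand), had a KHcy peak 11.2 kb from the start (chr11:60613001-60615000) that covered 71 bp of coding exon. It held 29 reads, a fold of 1.95 (1.31 to 2.80), the lowest of the member KHcy peaks. Its H3K4me3 peak (chr11:60622201-60624600) began 620 bp inside the gene and had 46 reads and a fold of 2.78 (2.03 to 3.70). A wider H3K4me3 peak 6.01 kb past the end, with 90 reads and a fold of 2.83, covered the start of the neighbouring gene Smcr8. No H3K79Hcy peak lay within 47.8 kb of Shmt1.

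Tyms, which makes thymidylate for DNA synthesis, had an H3K4me3 peak 9.14 kb past its end (chr5:30374001-30375600) with 25 reads and a fold of 2.26. In that peak 44.3% of the words of 31 bases occurred more than once in the genome, the largest share among the 25 peaks in or near members, where the median of the H3K4me3 list was 2.54% in a sample of 967 peaks. How far reads from such repeats entered the peak was not tested.

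The 3 genes of folate uptake, the receptor Folr1 and the transporters Slc19a1 and Slc46a1, had no peak of any list within 10 kb. The nearest were an H3K4me3 peak 24.2 kb from Slc46a1, a KHcy peak 148 kb from Folr1 and an H3K4me3 peak 365 kb from Slc19a1. Of the glycine cleavage system, which feeds carbons from glycine to folate, Gldc, the decarboxylase, Gcsh, the lipoate-carrying protein, and Dld, the dehydrogenase, also had none. Amt, the aminomethyltransferase of that system, had a pair of H3K4me3 peaks past its end, at 2.70 kb in Tcta (33 reads, fold 2.99) and at 5.30 kb in Rhoa (38 reads, fold 3.06). All 4 genes that return homocysteine to methionine were without peaks: Mtr, the methionine synthase, Mtrr, its reductase, and the betaine-linked methyltransferases Bhmt and Bhmt2. The same held for the AdoMet-using enzymes Gnmt, Pemt and Gamt. Of Mtr, Mtrr, Bhmt and Bhmt2, the density of the surrounding 5 Mb would give the most peaks in the body of Mtr. The values for Mtr were 0.18 for H3K79Hcy, 0.24 for KHcy and 0.46 for H3K4me3. Groups of so few genes do not allow a lack of peaks to be read as a trait, here or in the groups below.

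Of the 3 genes of AdoMet synthesis, Mat2b, the regulatory subunit, had H3K4me3 peaks, while the catalytic subunits Mat1a and Mat2a had no peak within 10 kb. The Mat2b peak inside the gene (chr11:40506401-40508000) began 705 bp from the start and had 30 reads and a fold of 2.72 (1.83 to 3.88). An upstream peak 4.10 kb away, with 43 reads and a fold of 2.22, lay in Hmmr.

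Of the 3 genes of AdoHcy hydrolysis, Ahcy and Ahcyl1 had H3K4me3 peaks in their bodies, and that of Ahcyl1 was not kept under the stricter score limit described below. Ahcy, the hydrolase that releases homocysteine, carried a peak over its start (chr2:154899601-154902200, 42 reads, fold 2.34) and another in an intron (chr2:154896201-154898600, 28 reads, fold 1.69). The latter was among the weakest of its list, where 0.124% of peaks had a lower fold. At least 2 H3K4me3 peaks were held by 3.77% of 2494 genes of similar length and by 6.41% of 873 that were also in stretches of similar density. The limit of 2 was again the gene's own count, so these shares are not a test. Ahcyl1, a related protein without known hydrolase activity, had an H3K4me3 peak (chr3:107497401-107499000) with 27 reads and a fold of 2.44, and a KHcy peak 2.44 kb past its end (chr3:107462201-107463600) with 28 reads and a fold of 2.69. Ahcyl2 had none.

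Of the 2 transsulfuration enzymes that turn homocysteine into cysteine, Cth had an H3K4me3 peak and Cbs, which catalyses the first step, had no peak of any list within 10 kb. The Cth peak (chr3:157587201-157588000) had 24 reads in 800 bp, a fold of 4.34 (2.78 to 6.47), and 97.5% of the H3K4me3 list lay below it. It began 41 bp inside the gene and covered 165 bp of coding sequence. This was the largest fold among all peaks in or near members. The median width in the H3K4me3 list was 1800 bp, and the score of the Cth peak was 25.3, where the lowest in the list was 18.4.

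HTL is formed by the methionyl-tRNA synthetases. Mars2, the mitochondrial enzyme, had an H3K4me3 peak (chr1:55294401-55296600) with 34 reads and a fold of 2.24 (1.55 to 3.13), which filled most of this gene of 2.88 kb. Mars, the cytosolic enzyme, had no peak within 10 kb, and its nearest H3K79Hcy peak was 14405 kb away.

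Of the 4 genes whose products remove HTL, Blmh alone had peaks. Blmh, the bleomycin hydrolase, which cleaves HTL inside cells, spans 62.6 kb (chr11:76738311-76800881, plus strand). Its H3K79Hcy peak (chr11:76780001-76781000) had 22 reads and a fold of 2.76 (1.73 to 4.18), lay 42.2 kb from the start and covered 227 bp of coding exon. Its KHcy peak (chr11:76753001-76754600) had 27 reads and a fold of 2.27 (1.50 to 3.30) and lay in an intron 15.5 kb from the start. Both folds stood near the middle of their lists, with 52.2% and 51.1% of peaks below them. The peaks were 25.4 kb apart, and the nearest H3K4me3 peak was 302 kb from the gene. Of genes of similar length and stretch, 24.0% of 701 held an H3K79Hcy peak and 28.6% of 653 a KHcy peak. In the KHcy peak 21.0% of the words of 31 bases were repeated in the genome, where the median of the KHcy list was 2.44% in a sample of 365 peaks. In the H3K79Hcy peak none were. The paraoxonases Pon1, Pon2 and Pon3, of which Pon1 hydrolyses HTL in plasma, lie side by side on chromosome 6 and had no H3K79Hcy or KHcy peak within 1966 kb.

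Across members, the 18 peaks in bodies had folds of 2.76 to 3.56 for H3K79Hcy, 1.95 to 2.69 for KHcy and 1.69 to 4.34 for H3K4me3. None of the 25 peaks in or within 10 kb of members overlapped a peak of another list. In the whole lists, 13.9% of H3K79Hcy peaks overlapped a KHcy peak and 15.4% an H3K4me3 peak. Of the KHcy list 12.9% overlapped H3K79Hcy and 16.5% H3K4me3, and of the H3K4me3 list, to which 15 of the 25 peaks belong, 5.19% overlapped H3K79Hcy and 6.18% KHcy. Most peaks of every list thus overlapped no other, and nothing about the members is read from the count of 0. Under a stricter score limit, set at the lowest score of each list plus the natural log of 100, neither of the H3K79Hcy peaks was kept, nor the KHcy peaks of Blmh and Shmt1. The same limit kept 3 KHcy peaks, all in Mthfd1l, and 5 of the 9 H3K4me3 peaks in bodies. Of the whole lists it kept 2293 of 7387 H3K79Hcy, 2992 of 7300 KHcy and 11469 of 19339 H3K4me3 peaks. Most H3K79Hcy and KHcy peaks of the whole lists were thus not kept either.

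**Figure D3:**
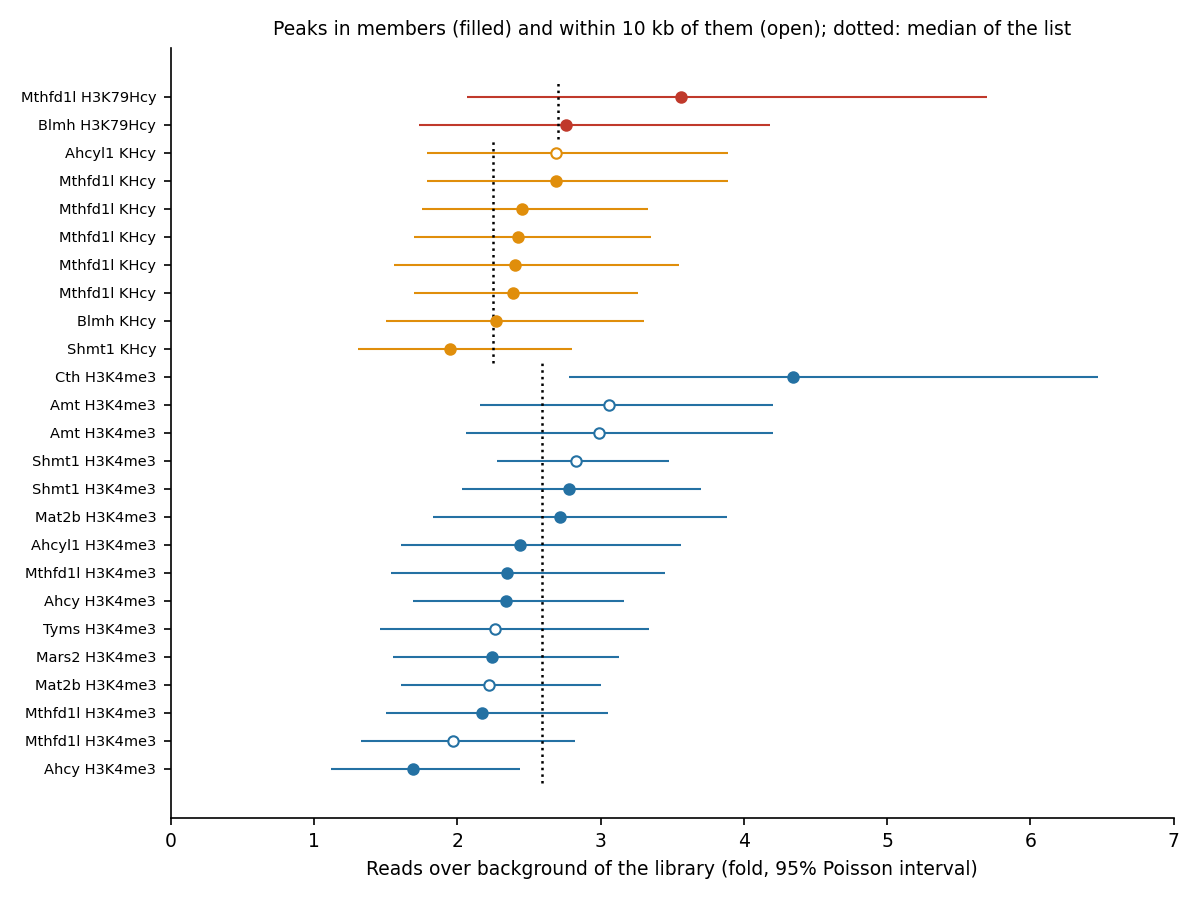
Fold of each of the 25 peaks in members (filled) and within 10 kb of them (open), as reads over the background of the library with exact 95% Poisson intervals; dotted lines are the medians of the lists (2.70, 2.25 and 2.59). The folds lie on both sides of the medians, from 1.69 in Ahcy to 4.34 in Cth.

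No homocysteinylation peak was found at the start of a member. No member start lay inside an H3K79Hcy or a KHcy peak, which allows a share of up to 7.69% for each, against 0.416% and 0.996% of all genes. None had a peak of these lists within 1000 bp of its start either, against 0.880% and 1.60% of all genes. At such low shares in all genes, a count of 0 of 39 was within what counting error allows. The centres of the 9 homocysteinylation peaks in bodies were 11.2 to 189 kb from the start. For H3K4me3, 2 starts lay inside a peak (5.13%, 1.42 to 16.9%, against 5.41% of all genes) and 7 members had a peak within 1000 bp (17.9%, 8.98 to 32.7%, against 13.6%).

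In those 7 genes the H3K4me3 peak lay mostly inside the gene. Its centre was downstream of the start in 6 of 7 (85.7%), Ahcy being the exception, against 67.3% of the 3034 genes with such a peak. The start itself was covered in 28.6% of the members and 39.9% of all such genes. The distance from start to peak was 41 bp in Cth, 380 bp in Mars2, 478 bp in Ahcyl1, 620 bp in Shmt1 and 705 bp in Mat2b. The median centre was 1.28 kb into the gene for the members and 0.627 kb for all such genes. No intervals were computed for these values, and 7 genes are too few to separate the members from other genes with such a peak.

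**Figure D4:**
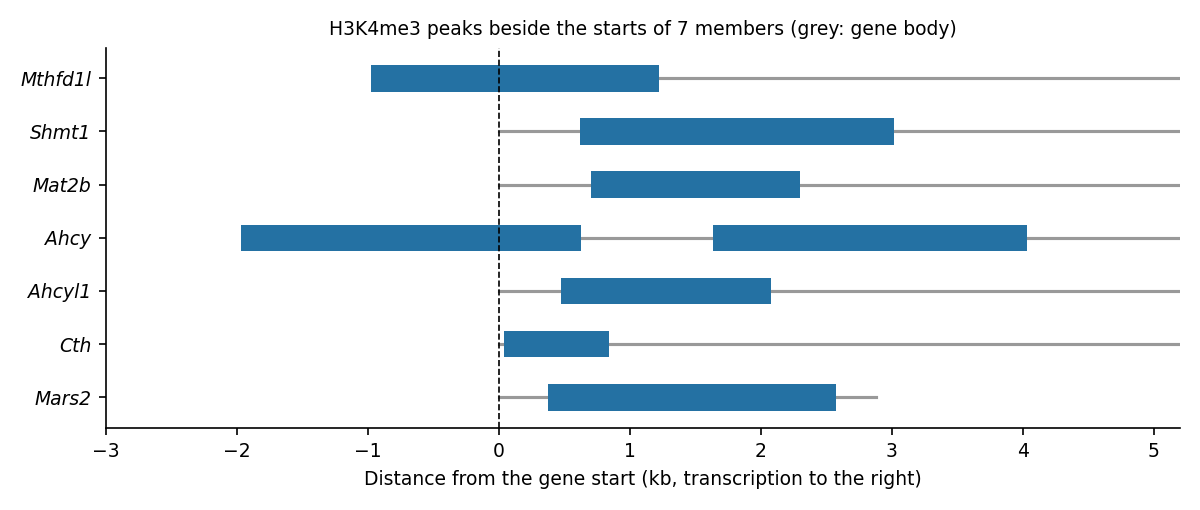
H3K4me3 peaks (blue boxes) around the starts of the 7 members with a peak within 1000 bp, with distance from the start in kb and transcription to the right; grey lines are gene bodies. The start is covered in Mthfd1l and Ahcy, and in the other 5 genes the peak begins 41 to 705 bp inside the gene.

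CG content around the start overlapped between these 7 genes and the other members. The 7 had 50 to 116 CG pairs in the 2 kb around the start (median 79), and the 32 members without such a peak had 14 to 157 (median 69.0). Of those 32, 22 had at least 50, Mat2a with 157 and Ahcyl2 with 133 among them. Over all genes the medians were 94.0 with a peak and 52.0 without. Within the 15 H3K4me3 peaks in or near members there were 6.36 to 43.2 CG pairs per kb (median 16.2), where the median of the list was 9.44. The highest were the peaks over the starts of Mthfd1l (43.2) and Ahcy (32.7), and the peaks beside the other 5 starts had 13.3 in Shmt1 to 26.4 in Mars2. Of the 8 KHcy peaks, the 5 in Mthfd1l had 8.18 to 13.2 CG pairs per kb, and those of Shmt1, Blmh and Ahcyl1 had 11, 7.5 and 5, against a median of 6.54 in the list. The H3K79Hcy peaks had 6.67 in Mthfd1l and 8 in Blmh, against 5.83. The list medians take in peaks wherever they lie, and peaks near genes in general were not used as a reference.

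The members differed in how many peaks lay around them. The 5 Mb around a member held from 0 to 39 H3K79Hcy peaks (median 4), from 0 to 61 KHcy peaks (median 4) and from 1 to 602 H3K4me3 peaks (median 23.0). The medians around all genes were 6, 6 and 24. The members fell into 2 sets by this measure: 20 had fewer than 5 peaks of each homocysteinylation list in their stretch, and the other 19 had at least 11 of H3K79Hcy. Fewer than 5 H3K79Hcy peaks surrounded 51.3% of the members and 48.3% of all genes, and for KHcy the shares were 51.3% and 48.1%. The same split was therefore present in the genome as a whole.

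No member with fewer than 5 peaks of a list in its stretch had a peak of that list within 10 kb. The density of such stretches would give at most 0.03 peaks in a member body, so this was close to fixed in advance. The share over all genes in such stretches was not computed. The peak-poor set of 20 held Mars, Shmt2, Mat2a, Dld, Ftcd and Gnmt with no peak of either homocysteinylation list in 5 Mb, and Mtrr with the most, 4 of each. Its stretches were not all poor in H3K4me3, since 5 of the 20 (Mtrr, Gamt, Aldh1l2, Gcsh and Gnmt) had at least 10 H3K4me3 peaks. At the other end, Aldh1l1 had 39 H3K79Hcy, 61 KHcy and 94 H3K4me3 peaks around it and none within 165 kb of its body. Among the 19 members in stretches with at least 10 H3K79Hcy peaks, 2 had a body peak (10.5%, 2.94 to 31.4%), against 15.4% of the 10339 such genes in all. For KHcy it was 3 of 18 (16.7%, 5.84 to 39.2%) against 18.5%, and for H3K4me3 6 of 23 (26.1%, 12.5 to 46.5%) against 27.3%.

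**Figure D5:**
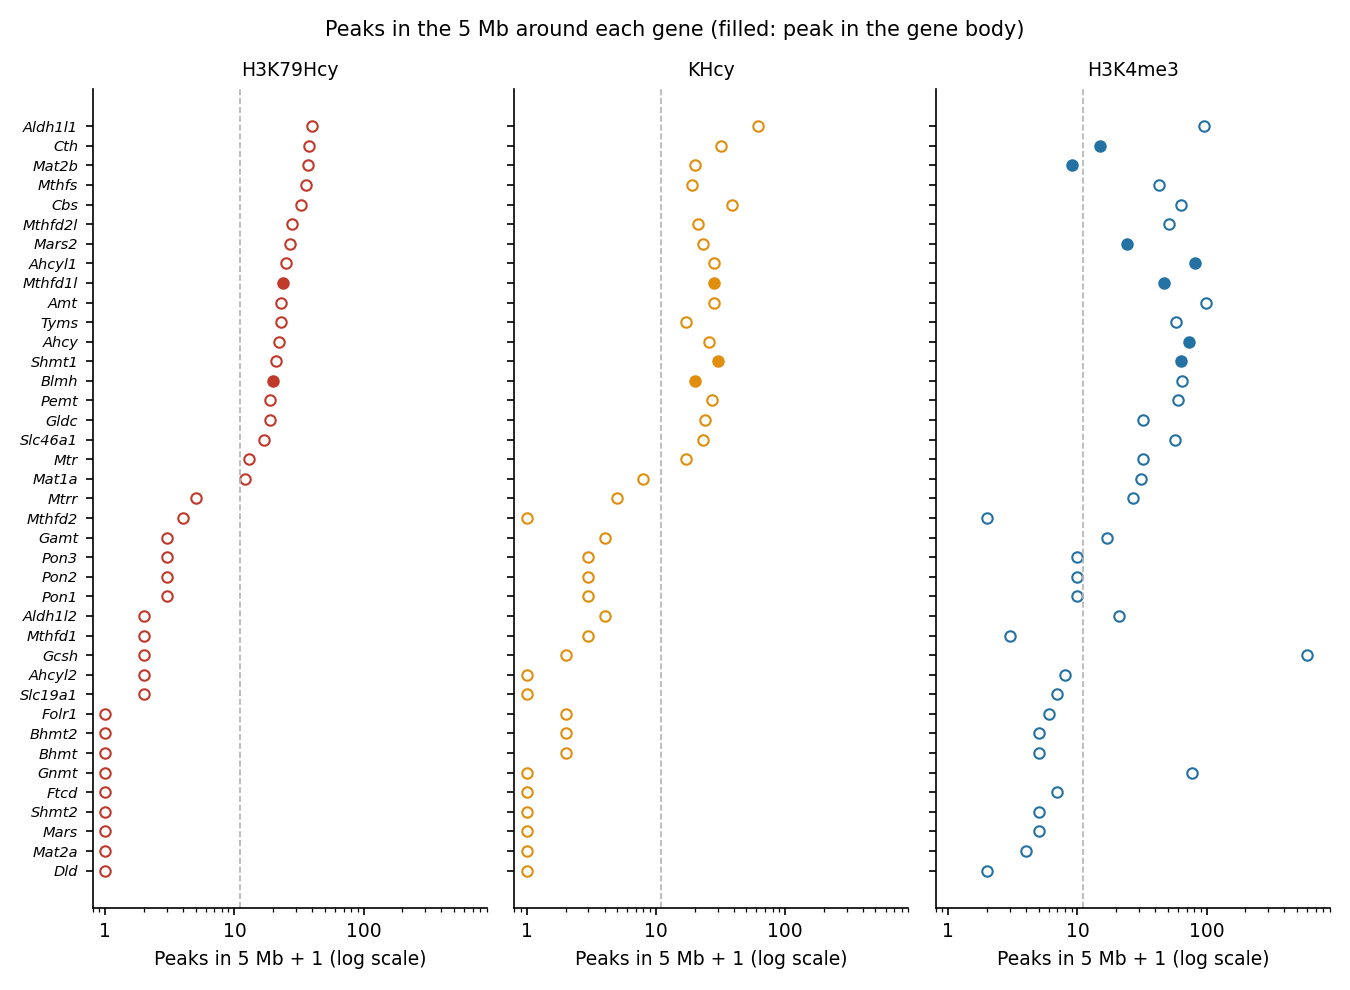
Number of peaks plus 1 (log scale) in the 5 Mb around each of the 39 members for H3K79Hcy, KHcy and H3K4me3, with genes in the same order in each panel; filled points have a peak in the gene body and the dashed line marks 10 peaks. The counts run from 0 to 39, 0 to 61 and 1 to 602, and no filled point lies below 8 peaks.

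Several members share a stretch and are not independent in these counts. Bhmt and Bhmt2 are 17.8 kb apart, Pon1 and Pon3 26.9 kb, Pon3 and Pon2 7.86 kb, Mars and Shmt2 205 kb, Ftcd and Slc19a1 442 kb, Pemt and Shmt1 742 kb, and Blmh and Slc46a1 1478 kb.

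Gcsh stood apart in H3K4me3. Its 5 Mb held 602 H3K4me3 peaks and 1 peak of each homocysteinylation list, and 0.0492% of all genes had as many H3K4me3 peaks around them. The peaks lay on both sides of the gene, 315 above and 287 below in coordinate, with a median spacing of 5 kb and up to 223 in 1 Mb. Their median fold was 2.68, near that of the list. Of the 602, 449 passed the stricter limit, as did 11469 of the 19339 in the whole list. The nearest were 97.0 and 123 kb from Gcsh itself. Gnmt had 76 H3K4me3 peaks in its 5 Mb and, unlike Gcsh, no homocysteinylation peak there.

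Of 30 other genes of the pathway, among them enzymes of serine synthesis, cobalamin handling and glutathione synthesis, 2 had an H3K79Hcy peak in the body (Psph and Lmbrd1), 3 a KHcy peak (Psat1, Mmadhc and Lmbrd1) and 7 an H3K4me3 peak (Slc25a32, Pipox, Psat1, Psph, Nnmt, Gclc and Gclm). Genes of similar length would give 2.03, 2.54 and 6.52. Lmbrd1, which exports cobalamin from lysosomes, had peaks of both homocysteinylation lists, with 1 H3K79Hcy and 3 KHcy peaks in 138 kb, in a stretch of 103 and 84 peaks. No start of these 30 genes lay inside an H3K79Hcy or KHcy peak, and those of Slc25a32, the mitochondrial folate carrier, and Psat1, of serine synthesis, lay inside an H3K4me3 peak. Expression of the members was not analysed here.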

How the data were processed

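ChIP-seq peak lists were analysed for 1 library each of H3K79Hcy, KHcy and H3K4me3 in NE4C cells. Per the methods, the authors used Bowtie 2 for alignment to mm9 and MACS for peaks (1.4.2 in the submitters' processing notes), with a filter through control input, while a figure legend names SICER as the caller. The authors deposited, for each peak, the count of reads in it, not normalized for depth or length, its length in bp and a score of the caller. For peaks of 1 window, the deposited score was taken as minus the natural log of the Poisson point probability of those reads. The background was solved from these peaks, and fold is reads over background across the peak. The planned false discovery rate is not in the lists, so the stricter lists kept scores above the lowest score plus the natural log of 100.

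Genes, exons and starts came from GENCODE M1, and sequences from NCBIM37, the same build as mm9. Promoter tables of another build were not used here. Overlap required 1 bp. The number expected from a stretch is the peak density of the rest of the 5 Mb centred on the gene times the gene length plus the mean peak width. Genes of similar length ranged from 0.8 times the length of a gene to the inverse of that factor, and those of similar stretch had similar peak counts in 5 Mb. Words of 31 bases were counted on both strands of the genome, with every 20th peak as the background. Where intervals are given, those of shares are 95% Wilson intervals and those of counts and folds are exact 95% Poisson intervals. A count of 0 allows 3.

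The rule on naming was that all 39 members be named, with every peak within 10 kb described. Members and lists were chosen with earlier results of these data known, so no p-value or set test was computed. The alternatives were the stricter score, lists of 7300 peaks of largest fold, overlap of 50% of the peak, flanks of 5 and 50 kb, stretches of 2 Mb, merging within 3000 bp, length ranges of 0.5 to 2 times, and peaks within 1000 bp of the start. Functions were tested on simulated data. The tools were Python 3.11.15, numpy 2.4.6, pandas 2.3.3, scipy 1.17.1 and matplotlib 3.10.9. Input, IgG, HTL-treated and RNA-seq libraries are not analysed here.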

Additional observations from a re-analysis of the deposited data

How the results depend on the processing

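Of 54 alternatives to 15 results, 41 stayed within 1.5 times the value given or within its interval and 13 moved further. With the stricter score, the members with an H3K79Hcy peak became 0 in the body and 0 within 10 kb. The ratios to similar length and to the stretch were both 0.00, with upper limits of 3.29 and 2.55. Members with a KHcy peak became 1 and 1. The KHcy ratios to similar length and to the stretch under the same limit were 0.52 (0.01 to 2.90) and 1.67 (0.34 to 4.87). For H3K4me3, 1 start stayed inside a peak. With every list cut to 7300 peaks, those with the largest fold, H3K4me3 peaks lay in 2 bodies, within 10 kb of 3 members and over 0 starts. A flank of 50 kb gave 7 members for H3K79Hcy and 7 for KHcy, and counting peaks within 1000 bp of the start gave 7 for H3K4me3. These alternatives keep fewer peaks or search more sequence by construction. For the stricter score, the cut lists and the flank of 50 kb, shares of all protein-coding genes were not computed. The counts under them are therefore not read as traits of the members. No paired analysis was possible because each antibody has 1 library, and for the same reason no replicate could be left out. With 39 genes and few peaks in them, the intervals are wide, as for H3K4me3 within 10 kb, where they run from 12.6 to 38.3%.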
